A study of Mus musculus with 10 samples.

Results

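The 9 genes described here encode subunits of Polycomb repressive complex 1 (PRC1): Cbx2, Cbx6, Cbx7, Cbx8, Bmi1, Pcgf2, Pcgf5, Phc1 and Phc2. They were taken by name from the 21883 protein-coding genes of the mouse annotation, and all 9 were matched. H3K27me3, histone H3 trimethylated at lysine 27, was measured by chromatin immunoprecipitation and sequencing in 10 libraries of C57BL/6 bone marrow-derived macrophages, grown for 7 days with 20 ng/ml of the growth factor M-CSF. Every mouse carried the floxed allele Eif2ak3 fl/fl. Eif2ak3 encodes PERK, a kinase that responds to stress in the endoplasmic reticulum. The wild type (WT) had this allele alone, and the knockout (KO) was Eif2ak3 fl/fl x LysMcre, in which the lysozyme M promoter drives Cre recombinase in myeloid cells. Cells were left untreated (M0, 1 library per genotype), given LPS at 20 ng/ml with IFNg at 50 ng/ml for 24 h (M1, 2 per genotype), or given 20 ng/ml IL-4 for 24 h (M2, 2 per genotype). Replicates of M1 and M2 are biological ones, per the design text, and M0 has none. The sources used here name neither the age of the mice nor any pooling of animals.

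PRC1 is the complex that puts ubiquitin on histone H2A and compacts chromatin, and PRC2 is the complex that writes H3K27me3. CBX proteins carry a chromodomain that binds H3K27me3, PCGF proteins pair with the RING1 ubiquitin ligases and define the type of PRC1, and PHC proteins link complexes to each other through their SAM domain. Genes of Polycomb proteins can themselves carry the mark that the complexes read. The measure of cover used below is the percent of a gene's window that lay under the regions called in a library, where the window is the gene body with 5 kb on either side (mm10). A region is a stretch that the authors' peak caller joined from windows enriched in tags.

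Promoter sequences of 5 members whose regions ended at or crossed the annotated start are shown to place those edges. Each runs from 250 bases before to 50 after a RefSeq start (GRCm38.p6, the assembly of mm10), 5′ to 3′ along the gene, with CG dinucleotides in capitals. Their positions are chr11:119040864-119041163 (Cbx8, minus strand), chr15:79932597-79932896 (Cbx7, minus strand), chr15:79834284-79834583 (Cbx6, minus strand), chr2:18676768-18677067 (Bmi1, plus strand) and chr19:36348079-36348378 (Pcgf5, plus strand).
Cbx8: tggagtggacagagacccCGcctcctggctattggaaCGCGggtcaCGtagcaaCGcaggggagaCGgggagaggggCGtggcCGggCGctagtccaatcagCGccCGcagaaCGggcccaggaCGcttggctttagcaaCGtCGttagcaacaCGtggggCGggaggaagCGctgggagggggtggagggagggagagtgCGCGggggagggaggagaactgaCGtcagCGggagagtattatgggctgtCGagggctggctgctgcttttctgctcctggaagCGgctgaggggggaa
Cbx7: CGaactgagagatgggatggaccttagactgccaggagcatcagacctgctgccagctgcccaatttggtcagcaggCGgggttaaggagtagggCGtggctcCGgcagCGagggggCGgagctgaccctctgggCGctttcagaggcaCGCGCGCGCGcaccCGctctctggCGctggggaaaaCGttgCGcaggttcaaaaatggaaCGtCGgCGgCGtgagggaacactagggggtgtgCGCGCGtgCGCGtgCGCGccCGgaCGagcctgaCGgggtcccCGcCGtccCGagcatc
Cbx6: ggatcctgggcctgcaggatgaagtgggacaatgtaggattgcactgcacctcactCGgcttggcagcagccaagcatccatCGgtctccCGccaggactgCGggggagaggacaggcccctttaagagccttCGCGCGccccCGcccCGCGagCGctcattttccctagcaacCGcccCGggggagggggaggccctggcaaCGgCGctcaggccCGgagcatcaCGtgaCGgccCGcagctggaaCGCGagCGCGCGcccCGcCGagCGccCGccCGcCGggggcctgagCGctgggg
Bmi1: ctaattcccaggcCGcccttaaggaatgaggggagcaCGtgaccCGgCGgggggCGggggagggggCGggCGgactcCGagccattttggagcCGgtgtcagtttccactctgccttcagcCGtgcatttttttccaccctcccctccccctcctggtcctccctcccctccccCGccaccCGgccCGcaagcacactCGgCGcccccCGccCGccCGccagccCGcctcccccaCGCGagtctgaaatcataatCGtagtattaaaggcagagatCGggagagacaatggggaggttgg
Pcgf5: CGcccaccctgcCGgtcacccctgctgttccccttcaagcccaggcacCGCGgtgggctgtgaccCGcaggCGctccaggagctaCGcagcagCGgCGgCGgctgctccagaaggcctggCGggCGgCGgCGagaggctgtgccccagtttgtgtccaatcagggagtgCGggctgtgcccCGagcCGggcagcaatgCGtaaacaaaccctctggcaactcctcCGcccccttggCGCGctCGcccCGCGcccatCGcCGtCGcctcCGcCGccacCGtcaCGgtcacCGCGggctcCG
The 5 stretches hold 24, 33, 31, 23 and 34 CG dinucleotides in the order shown, against a median of 7 over the 32851 promoters of the table. At least as many are found in 20.0%, 8.56%, 10.6%, 21.5% and 7.73% of those promoters. The E-box letters CACGTG, which read the same on both strands and hold 1 of the CG dinucleotides, occur in Cbx8, Cbx6 and Bmi1 and in 7.15% of all promoters. The table matched 8 of the 9 members, all but Cbx2.

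The libraries held 12.6 to 20.9 megatags, of which 41.3% (WT M2 replicate 1) to 64.1% (KO M0) lay in called regions. The 95% Wilson interval of such a share was at most 0.0267 percentage points to either side, for counting error only. The estimated fragment length was 352 bp in WT M0 and 372 bp in KO M0, while the 8 stimulated libraries had 178 to 190 bp. The M0 libraries held 62.6% and 64.1% of tags in regions against 41.3% to 61.3%. State M0 and these properties cannot be told apart. The share of tags in regions was 61.0% and 61.3% in KO M2, 41.3% and 56.5% in WT M2, and 45.0% to 48.5% in M1. Eif2ak3 itself had 0% of its body under regions in all 10 libraries, so the mark does not check the deletion. Of 10 macrophage markers 0 or 1 had at least 50% of the window covered in a library. The same rule was met by 2 to 6 of 8 T cell markers (Cd3e and Gata3 in all 10 libraries), 0 to 2 of 5 B cell markers, 1 to 3 of 7 granulocyte or erythroid markers (Hba-a1 in all 10), and 1 to 4 of 6 markers from stroma or epithelium (Col1a1 in all 10). X-linked genes stood apart in WT M1 replicate 1 and WT M2 replicate 1. Bcorl1, a cofactor of variant PRC1 chosen after its values were seen, had 79.0% and 81.4% of its window covered there and 0% to 3.26% in the other 8 libraries. All 9 members are autosomal. In bulk chromatin, more cells with the mark and more mark per cell cannot be told apart.

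Window cover was graded over the members, from nearly full to nearly none. The windows run from 14.6 kb (Cbx8) to 123 kb (Pcgf5), so the same region gives a smaller percent in a longer window. At least 50% of the window was covered in all 10 libraries for 3 members, Cbx8, Cbx2 and Cbx7, while 7.51% of all protein-coding genes met the same rule. By median over the 10 libraries the order was Cbx8 (93.0%), Cbx2 (65.8%), Cbx7 (57.2%), Bmi1 (40.1%), Cbx6 (19.1%), Phc1 (8.03%), Pcgf2, Pcgf5 (2.69%) and Phc2 (2.04%). The ranges of Cbx8 (78.6% to 100%) and Cbx2 (55.9% to 91.6%) overlapped, as did those of Cbx2 and Cbx7 (51.2% to 59.8%). Bmi1 (36.8% to 50.7%) lay below Cbx7 in every library and its range met that of Cbx6 (10.5% to 37.7%) only through KO M2 replicate 1 at Cbx6. The last 4 members ranged from 0% to 14.5% and overlapped with each other, and Phc1 (0% to 14.5%) also overlapped with Cbx6.

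**Figure D1:**
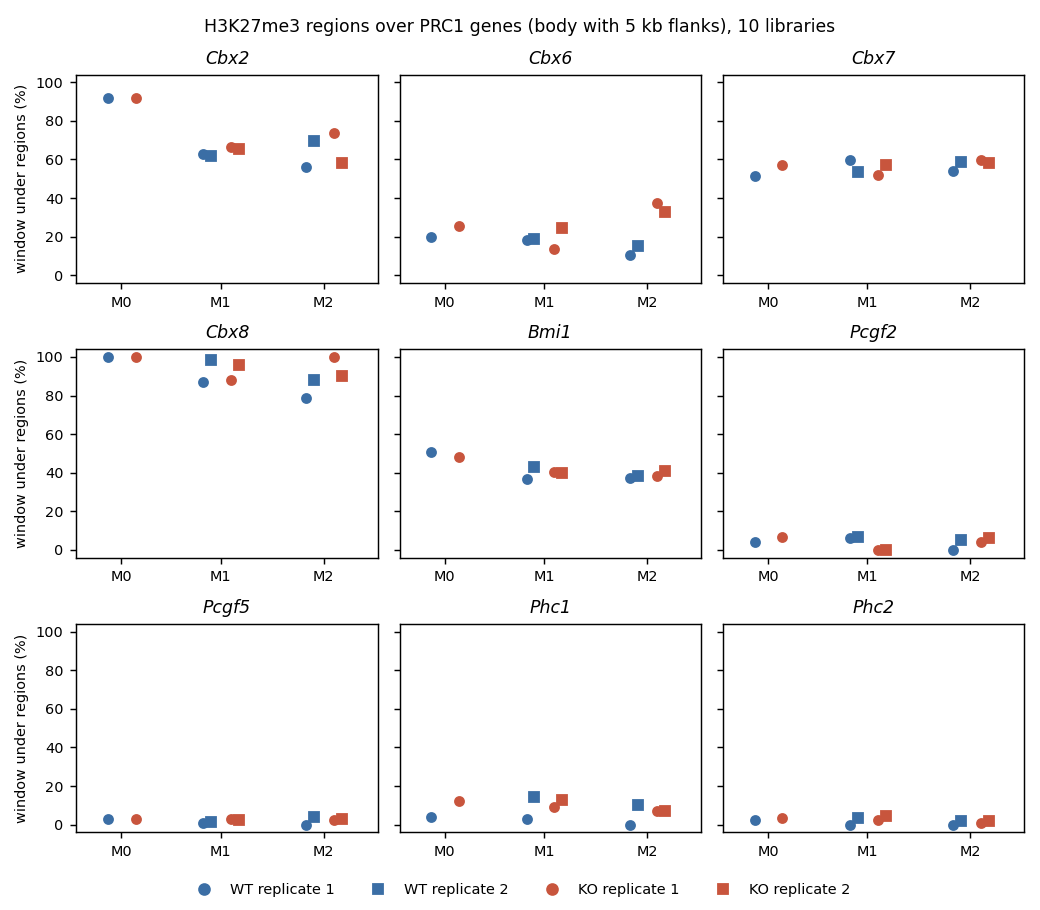
Percent of each member's window under called H3K27me3 regions (y axis) by state (x axis), with 1 point per library, WT in blue and KO in red, circles for replicate 1 and squares for replicate 2. Cbx2 and Bmi1 stand higher in both M0 libraries than in the 8 stimulated ones, and Cbx6 stands at 37.7% and 32.8% in KO M2.

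Cover was compared between M0 and stimulated libraries by exact two-sided permutation within genotype, for which the smallest possible p is 0.04. Of the 9 members 2 were higher in M0 at an unadjusted p under 0.05 and 0 were lower, against 9.89% higher and 14.9% lower among the 12291 genes with any cover. The smallest adjusted p of a member over all these genes was 0.161. The median difference of the members was 1.19 percentage points, beside -0.53 over all genes tested. With 9 libraries the smallest p is 0.05 or more, so no value can pass when a library is left out. Without WT M1 replicate 1 and WT M2 replicate 1 the M0 difference was 25.9 percentage points at Cbx2 and 9.02 at Bmi1 (each at exact permutation p = 0.0667, the smallest then possible).

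Cbx2 and Cbx8 encode chromodomain subunits of canonical PRC1 and lie 5.03 kb apart on chromosome 11 (Cbx2 at 119023019 to 119031275, Cbx8 at 119036303 to 119040913). Their windows share 4.97 kb, and the same regions touch both, so their values are not independent. Cbx2 had 91.6% of its window covered in both M0 libraries. The M1 values were 62.6% and 61.6% in WT and 66.4% and 65.3% in KO, and the M2 values 55.9% and 69.3% in WT and 73.8% and 58.1% in KO. The M0 libraries thus lay above all stimulated ones, by 27.5 percentage points (91.6% ± 0.0194 against 64.1% ± 5.87, SD, n = 2 and 8; exact permutation p = 0.04, adjusted p = 0.161). On the upper 50% of regions by score, which leaves out whole domains, the difference at Cbx2 turned to -27.9 percentage points (exact permutation p = 0.32).

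The difference at Cbx2 lay inside the gene. A region of 78.0 to 136 kb entered from the lower-coordinate side, and a second began between 7.28 and 9.71 kb into or just past the gene, which is 8.26 kb long. The first region ended 6.33 kb (WT) and 6.39 kb (KO) into the gene in M0. In stimulated WT libraries it ended at 1.68 and 1.48 kb in M1 and at 0.673 and 1.68 kb in M2. In stimulated KO libraries the ends were at 2.11 and 2.55 kb in M1 and at 2.56 and 2.06 kb in M2, so each KO end lay deeper in the gene than each WT end of the same state. These edges were chosen after their values were seen and carry no test. The gene body alone was 81.4% (WT) and 81.5% (KO) covered in M0 and 8.16% to 42.1% in stimulated libraries (81.4% ± 0.0428 against 25.3% ± 10.2, SD, n = 2 and 8; exact permutation p = 0.04, adjusted p = 0.177). By body cover 3 of 9 members, Cbx2, Bmi1 and Phc2, were higher in M0 and 0 lower, against 10.8% and 11.9% of 9350 genes, and 0 differed by genotype, against 2.71% higher and 0.631% lower in KO.

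Cbx8 had 100% of its window covered in both M0 libraries and in KO M2 replicate 1. The other stimulated values were 87.2% and 98.6% in WT M1, 87.9% and 95.8% in KO M1, 78.6% and 88.2% in WT M2, and 90.2% in KO M2 replicate 2. The groups overlapped, and the difference of 9.19 percentage points did not pass (100% against 90.8% ± 7.05, SD, n = 2 and 8; exact permutation p = 0.16), and was -27.3 on the upper 50% of regions by score. In 4 stimulated libraries, WT M1 replicate 1, KO M1 replicate 1 and both WT M2, the domain was split close to the start whose promoter is shown above. Within 1 kb of that start, cover was 55.9%, 55.6%, 28.3% and 39.4% in these and 100% in the other 6, among them both M0 and both KO M2 libraries.

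**Figure D2:**
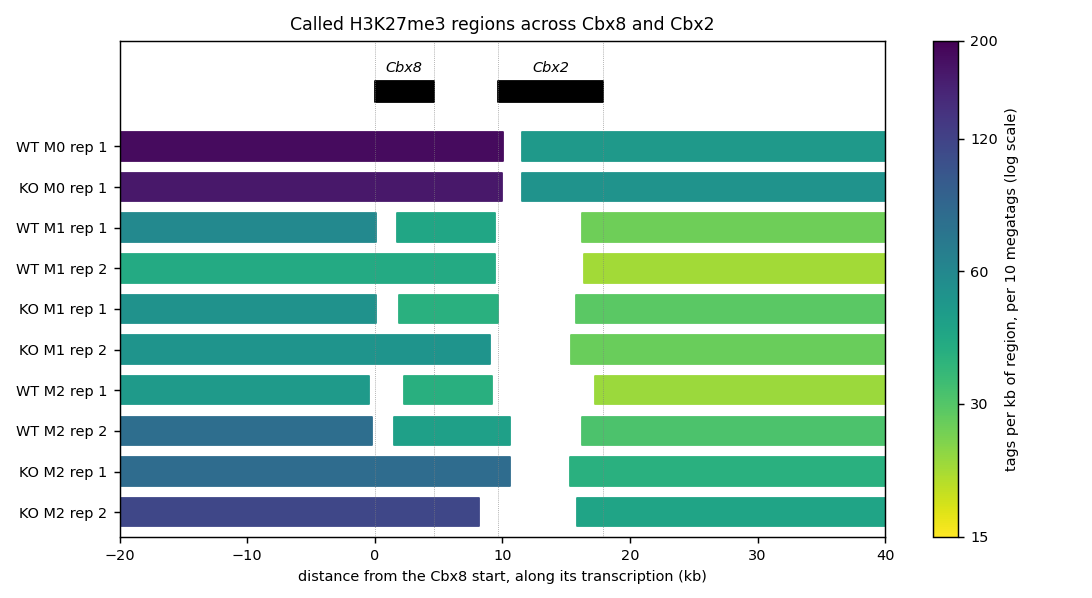
Called regions in each of the 10 libraries (rows) across Cbx8 and Cbx2, by distance from the Cbx8 start in kb along its transcription (x axis), coloured by tags per kb of region on a log scale. Black boxes are the genes. In M0 the regions reach farther into Cbx2 and the domain over Cbx8 is darkest, at 170 to 184 tags per kb.

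Tag density, the authors' normalised tag count per kb of the overlapping regions at 10 megatags, placed Cbx8 among the most densely marked genes of every library. Its percentile among the 8877 to 9866 genes with a region was 99.2 to 99.8 in all 10 libraries. Its densities were 184 (WT) and 170 (KO) tags per kb in M0, 56.4, 41.6 (WT), 51.1 and 52.3 (KO) in M1, and 47.6, 72.9 (WT), 81.0 and 116 (KO) in M2. M0 lay above all stimulated libraries, and the KO M2 libraries above the other 6 stimulated ones. WT M0, KO M0 and KO M2 replicate 2 also held the fewest tags, 12.6, 14.5 and 14.2 megatags against 17.6 to 20.9. Density counts called regions only, and the part of depth in it was not tested.

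By density 4 of the 5 members with a region in all 10 libraries were higher in M0 and 0 lower, in a table where 79.6% of 7098 genes were higher and 0.507% lower. The median log2 difference of all these genes was 0.84, and the counts are the same at an adjusted p under 0.05. The log2 difference at Cbx8 was 1.53 (mean log2 density 7.47 ± 0.0841 against 5.94 ± 0.485, SD, n = 2 and 8; exact permutation p = 0.04). Bmi1 had a log2 density difference of 1.58 and Cbx2 of 1.48, both also above the median of all genes and at exact permutation p = 0.04. Cbx7, at 0.67, lay below that median, and Cbx6 (0.69) did not pass (exact permutation p = 0.16). The Bmi1 density also counts a region that begins beyond the gene, at 140 and 195 tags per kb in M0 and 29.9 to 59.2 after stimulation. The region over the gene itself had 70.7 and 71.8 tags per kb in M0 and 39.6 to 51.6 after stimulation, a smaller change. After division by the median region density of each library, 55.1% of genes were higher in M0 and 5.49% lower, with a median of 0.47. On this scale the log2 differences were 1.16 at Cbx8, 1.21 at Bmi1, 1.11 at Cbx2 (each at exact permutation p = 0.04, adjusted p = 0.066) and 0.30 at Cbx7 (exact permutation p = 0.08). By percentile among genes of the same library, M0 did not stand apart from stimulation at these first 3 genes. Bmi1 had 94.1 and 95.7 in M0 against 81.1 to 96.3. Cbx2 had 90.6 and 93.7 against 76.7 to 94.9, and Cbx8 99.2 and 99.4 against 99.2 to 99.8. The regions extend far beyond the windows, so a density describes whole regions, but only those that touch the window. At Cbx2 the higher-coordinate region was 6.91 to 9.10 kb long where the domain was split near the Cbx8 start, and 44.4 to 48.1 kb elsewhere. Cbx6 lies wholly within the model of Npcd. A long region over Npcd, past the lower-coordinate end of Cbx6, touched the Cbx6 window in part of the libraries only. Cbx6 had 24.7 (WT) and 58.3 (KO) tags per kb in M0, while Npcd had 61.1 and 58.3.

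**Figure D3:**
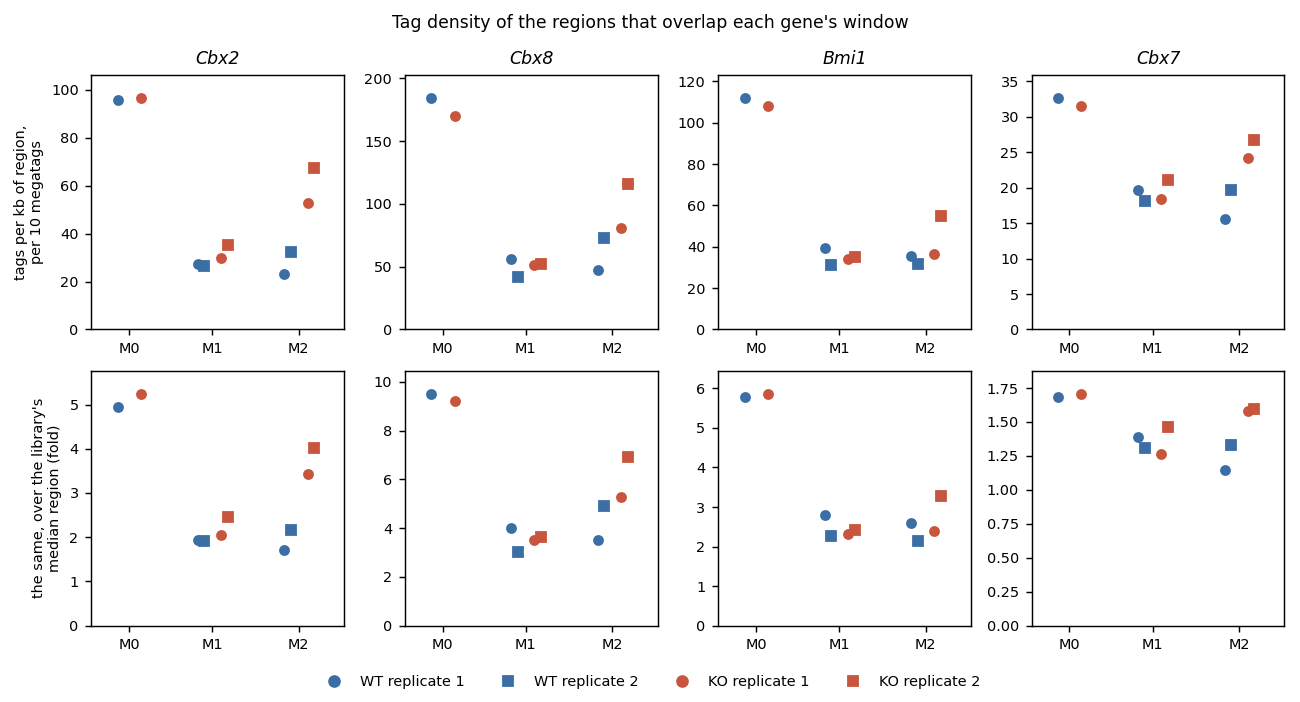
Tags per kb of the regions overlapping the windows of Cbx2, Cbx8, Bmi1 and Cbx7 at 10 megatags (upper row) and the same divided by the library's median region density (lower row), by state, with 1 point per library (WT blue, KO red, circles replicate 1, squares replicate 2). M0 is highest in all 4 genes in both rows, and in M2 both KO points of Cbx2 lie above both WT points.

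Cbx7, the CBX subunit known for repression of the Ink4a/Arf locus, was marked on 1 side of its annotated start. The gene model spans chromosome 15, 79915804 to 79971143, on the minus strand, and the start of the promoter table lies 16.8 kb from its lower end. The 38.5 kb upstream of that start, which also lie within the gene model, were covered by 79.2% to 94.5%. The 16.8 kb downstream of it were covered by 0% to 6.89%. The boundary lay between 0.103 kb before and 1.16 kb after the start in all 10 libraries, at 1.16 and 0.933 kb in M0 and at -0.103 to 0.894 kb after stimulation. At the far side the domain ended 40.3 to 41.4 kb upstream, a spread of 1.07 kb over 10 libraries. Window cover did not differ between M0 and stimulated libraries beyond its spread (54.3% ± 4.33 against 56.5% ± 3.09, SD, n = 2 and 8; exact permutation p = 0.48).

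The stretch beside the Cbx7 start changed in another way. In M0 it was a separate region of 4.88 kb (WT) and 5.03 kb (KO) with 62.4 and 63.0 tags per kb. In the stimulated libraries the region there was 7.80 to 13.9 kb long with 17.6 to 27.7 tags per kb. The lengths differ, so the densities are averages over different stretches.

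Cbx6 encodes a chromodomain protein of canonical PRC1 (chromosome 15, 79823898 to 79834333), and its model shares its upper end with Npcd, a neighbour of the window. Window cover was 19.6% (WT) and 25.5% (KO) in M0, 18.2% and 18.6% in WT M1, and 13.5% and 24.2% in KO M1. In M2 it was 10.5% and 15.3% in WT and 37.7% and 32.8% in KO. The KO M2 libraries were the highest of all 10. Over 5 KO and 5 WT libraries the difference of 10.3 percentage points did not pass (26.7% ± 9.19 against 16.5% ± 3.68, SD, n = 5; exact permutation within state p = 0.0833, adjusted p = 0.713). Without KO M1 replicate 1 it was 13.4 (exact permutation p = 0.0278), and without WT M1 replicate 1 and WT M2 replicate 1 it was 8.92 (exact permutation p = 0.167).

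At the Cbx6 start the KO M2 libraries again lay above the WT M2 libraries. Within 1 kb of it, 100% (WT) and 78.2% (KO) were covered in M0 and 100% in both KO M2 libraries, against 0% in both WT M2 libraries. In M1 the values were 0% and 49.975% in WT and 0% and 7.65% in KO. The M1 regions stopped before the start, except in WT M1 replicate 2, where the region ended 0.01 kb past it. The regions nearest the start were weak in all 10 libraries, at 13.8 to 22.3 tags per kb. Relative to the library's median region density they stood at 1.15 and 1.09 fold in KO M2 and 1.15 and 1.01 fold in WT M2. The genotypes in M2 thus differed in where a region near the typical density ended. Cover of at least 50% in both M0 and both KO M2 libraries and under 50% in all 6 others was found at 74 of the 12471 starts with any cover, or 0.593%. The Cbx6 start is among them only because WT M1 replicate 2 lay just under the 50% limit. The share of tags in regions was also high in these libraries, 62.6% and 64.1% in M0 and 61.0% and 61.3% in KO M2 against 41.3% to 56.5% in the other 6, and its part in the result was not tested.

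Bmi1, the PCGF subunit of canonical PRC1 that sustains stem cell self-renewal (chromosome 2, 18677018 to 18686629), was marked over its first part and beyond its end. Its window also overlaps the genes Commd3, on the upstream side, and Gm46725, on the downstream side, whose windows were covered by 37.3% to 65.2% and 43.8% to 59.5%. Window cover was 50.7% (WT) and 48.1% (KO) in M0, 36.8% and 42.9% in WT M1, 40.2% and 40.1% in KO M1, 37.2% and 38.4% in WT M2, and 38.5% and 41.1% in KO M2. M0 lay above all stimulated libraries by 10.0 percentage points (49.4% ± 1.81 against 39.4% ± 2.08, SD, n = 2 and 8; exact permutation p = 0.04, adjusted p = 0.161). The genotypes differed by 0.40 percentage points, less than their spread (41.6% ± 3.78 in KO, 41.2% ± 5.85 in WT, SD, n = 5; exact permutation p = 0.75).

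The region over the beginning of Bmi1 began at -0.499 kb (WT) and -0.191 kb (KO) from the annotated start in M0, which is before it, and between 0.003 and 0.474 kb after it in all 8 stimulated libraries. It ended 3.73 to 5.02 kb into the gene. Its density was 71.8 and 70.7 tags per kb in M0 and 39.6 to 51.6 after stimulation. Cover within 1 kb of the start was 74.9% and 59.5% in M0 and 26.3% to 49.8% after stimulation, groups that did not overlap (67.2% ± 10.9 against 38.2% ± 9.45, SD, n = 2 and 8; exact permutation p = 0.04, adjusted p = 0.336). Of the 12 annotated starts of the 8 members in the promoter table, 2 were higher in M0 (Bmi1 and Pcgf2) and 0 lower, against 6.68% and 5.24% of all starts with any cover. Within 0.5 kb the starts that passed were those of Bmi1 and Phc1, and within 2 kb that of Bmi1 alone. By genotype 0 passed, against 0.577% higher and 0.0962% lower in KO.

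A second region began 10.8 to 11.1 kb from the Bmi1 start, beyond the gene's end at 9.61 kb, with its near edge within 0.307 kb over all 10 libraries. It ended at 24.39 kb in WT M0 and at 29.5 to 39.6 kb after stimulation. In KO M0 it ended at 15.05 kb and, after a gap of 1.80 kb, another region ran from 16.85 to 24.2 kb, so the marked stretch ended close to that of WT M0. The density of the region was 140 tags per kb in WT M0, 195 and 111 in these 2 regions of KO M0, and 29.9 to 59.2 after stimulation. In the authors' deposited table of WT enriched M2 regions, an entry lies under this stretch (chromosome 2, 18693171 to 18693571), 6.54 kb past Bmi1 and outside its window. The authors' deposited table gives it a log2 fold of -1.78, a p-value of 0.00106 and a false discovery rate of 0.147. A called region lay over it in all libraries but KO M0, where it falls in the gap. Averaged over that whole region, density in M2 went the other way, at 41.4 and 59.2 tags per kb in KO and 34.5 and 32.6 in WT. The entry is 401 bp wide and these M2 regions are 18.5 to 28.4 kb long, so the stretches compared are unlike. Density within the entry alone was not tested. None of the authors' deposited tables holds a region within the window of any member.

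Pcgf5, a subunit of a variant PRC1 without CBX proteins (chromosome 19, 36348329 to 36460970), carried regions only at or upstream of its first annotated start. Within 1 kb of that start cover was 100% in both M0 libraries, 0% in all 4 M1 libraries, 0% and 100% in WT M2, and 91.3% and 100% in KO M2. The 4 M1 libraries had a region upstream that stopped 1.13 to 3.37 kb short of the start. The M2 libraries lay 72.8 percentage points above the M1 libraries (exact permutation within genotype p = 0.167), and WT M2 replicate 1 had no region in the window at all. Both other annotated starts, inside the gene, had 0% cover in all 10 libraries.

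Pcgf2, the Mel18 subunit and closest relative of Bmi1 (chromosome 11, 97688821 to 97702434, with Mllt6, Cisd3 and Psmb3 as neighbours in its window), had a single region of 1.00 to 1.56 kb in 7 libraries and none in both KO M1 libraries and WT M2 replicate 1. It lay upstream of the start of the promoter table, within the gene model. Cover within 1 kb of that start was 9.95% and 16.6% in M0 and at most 10.99% after stimulation, and the groups overlapped (13.3% ± 4.74 against 2.39% ± 3.91, SD, n = 2 and 8; exact permutation p = 0.04, adjusted p = 0.336). The Pcgf2 call was lost within 0.5 kb of the start, where the difference was 0 (exact permutation p = 1), within 2 kb (exact permutation p = 0.24) and on the upper 50% of regions by score (exact permutation p = 0.2).

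The PHC genes were marked near their starts and, in part of the libraries, upstream. Phc1 had a region of 1.00 to 1.89 kb beginning 0.304 to 0.834 kb after its start in 9 libraries, and in 7 of these a further region of 1.00 to 8.26 kb upstream. Phc1 (chromosome 6, 122317731 to 122340227) had 34.8% and 28.4% of the stretch within 1 kb of its start covered in M0, and 0% to 24.5% after stimulation (31.6% ± 4.56 against 17.2% ± 9.32, SD, n = 2 and 8; exact permutation p = 0.08), groups that did not overlap. Phc2 (chromosome 4, 128654655 to 128752881) had 72.5% and 62.7% covered at its first annotated start in M0. After stimulation the values there were 0% in both WT M1, 13.7% and 37.0% in KO M1, 0% and 49.5% in WT M2, and 0% and 82.0% in KO M2. The Phc2 groups overlapped (exact permutation p = 0.08). Longer regions upstream of Phc2, of 11.8 kb in WT M1 replicate 2 and 9.12 kb in WT M2 replicate 2, reached into its window, and short regions lay inside the gene at 55.8 kb from its start in WT M0 and at 4.39 and 33.6 kb in KO M0. WT M2 replicate 1, the library with the lowest share of tags in regions, had no region in the windows of Phc1, Phc2, Pcgf2 and Pcgf5.

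**Figure D4:**
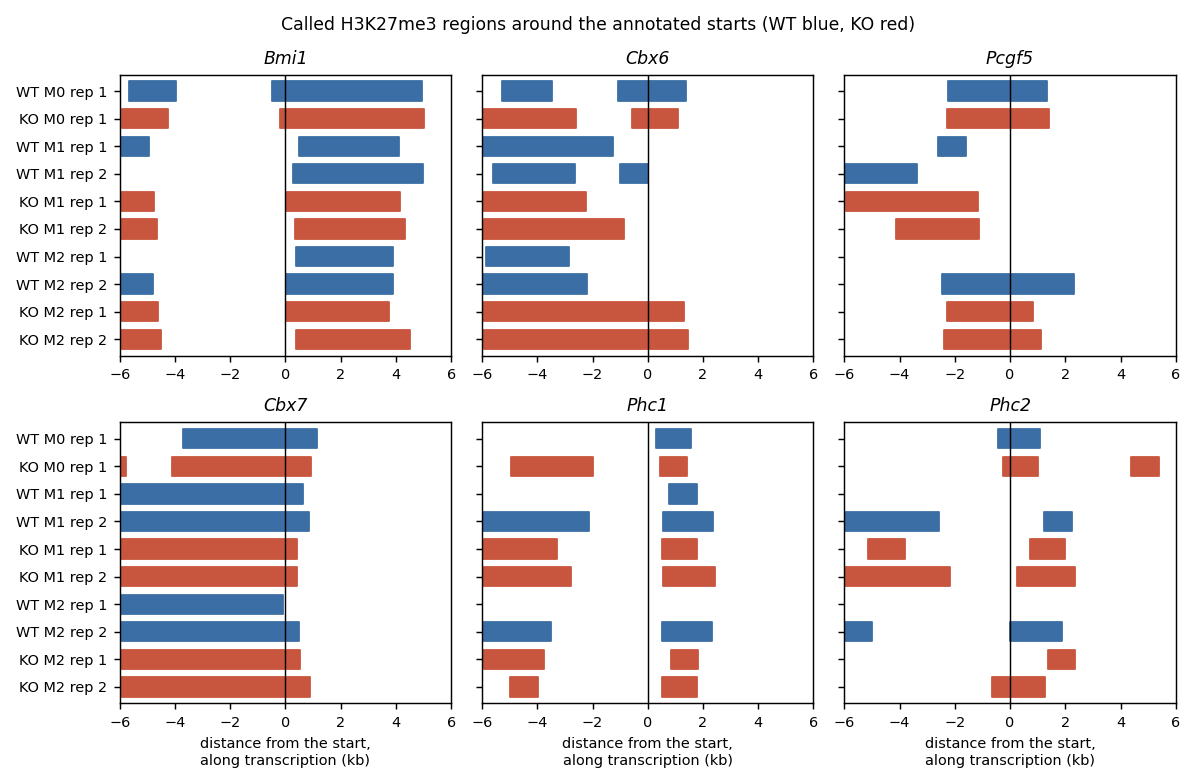
Called regions (bars, WT blue, KO red) in the 10 libraries within 6 kb of the annotated start (vertical line at 0) of Bmi1, Cbx6, Pcgf5, Cbx7, Phc1 and Phc2, with distance along transcription in kb on the x axis. At Bmi1 the region begins before the start in M0 only, at Cbx6 it crosses the start in M0 and KO M2, and at Cbx7 it ends within 1.16 kb of the start in all libraries.

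The comparison of genotypes asked whether loss of PERK was accompanied by another level of the mark. By window cover, 0 of 9 members passed an unadjusted p under 0.05 in either direction in the exact permutation test within state, against 3.56% of genes higher and 0.667% lower in KO. The median difference of the members was 1.51 percentage points, beside 0.59 over all genes. Adjusted p-values of the members were 0.713 or more.

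By tag density 1 of the 5 members with a region in all 10 libraries passed, Cbx2, against 6.34% of genes higher and 0.0141% lower in KO. Its densities were 95.8 (WT) and 96.7 (KO) tags per kb in M0, 27.4 and 26.6 (WT) against 29.9 and 35.3 (KO) in M1, and 23.3 and 32.1 (WT) against 52.6 and 67.2 (KO) in M2. KO was higher than WT in every state, by log2 differences of 0.01 in M0, 0.27 in M1 and 1.12 in M2. The M2 densities cover unlike stretches. In WT M2 the domain was split near the Cbx8 start, and the higher-coordinate region counted at Cbx2 was 6.91 and 9.10 kb long. In KO M2 it was 46.4 and 44.4 kb long. The piece left out in WT M2 had 49.4 and 79.6 tags per kb. The part of this split in the difference was not tested. Over 5 libraries a side the mean log2 density was 5.13 ± 0.830 for WT against 5.68 ± 0.687 for KO (SD, n = 5; difference 0.56, exact permutation p = 0.0278, adjusted p = 0.437), beside a median difference of 0.17 over all genes. The p of 0.0278 is the smallest possible. It is reached only with KO above WT in M0 too, where 1 library per genotype differed by 0.01. After division by the median region density of each library the difference was 0.48 (exact permutation p = 0.0278, adjusted p = 0.652), with 3.51% of genes higher and 0.338% lower. The share of tags in regions was also higher in KO M2 than in WT M2, as given above, and its part was not tested. Without WT M1 replicate 1 and WT M2 replicate 1 the log2 difference at Cbx2 was 0.43 (exact permutation p = 0.0556, the smallest then possible). The percentile of Cbx2 among genes of the same library was 94.6 and 94.9 in KO M2 and 76.7 and 82.4 in WT M2. Whether the genotype difference differs between M1 and M2 was not tested.

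M2 and M1 were compared by exact permutation within genotype, which with 4 libraries a side cannot give a p under 0.0556. None of the 9 members reached that value, and 0% of genes can be called. The differences of the members in window cover ran from -3.82 percentage points at Phc1 (exact permutation p = 0.333) to 5.42 at Cbx6 (exact permutation p = 0.389).

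Other genes of the pathway were read from lists of 18 further PRC1 genes and 12 PRC2 genes. Of the 18 PRC1 genes, 0 had at least 50% of the window covered in all 10 libraries, and 5 had no cover in any, among them the catalytic subunits Ring1 and Rnf2. By window cover, of the 13 with any cover 1 was higher in M0 (Kdm2b) and 3 lower (Auts2, E2f6 and Mga) at an unadjusted p under 0.05 (exact permutation test), and 0 differed by genotype. Of the 12 PRC2 genes 8 had no cover, among them Ezh2, Eed and Suz12, the core of the enzyme. Epop, an accessory factor of PRC2, was covered by 83.8% to 100% in all 10. Of 8 textbook targets of PRC1, 6 were covered in all 10 libraries: Cdkn2a, Hoxa13, Hoxa9, Hoxd13, Pax6 and Sox2. Hoxa9, Hoxa13 and Hoxd13 stood at 100% throughout, above every member but Cbx8 in M0 and KO M2 replicate 1. Of these 8, 0 were higher and 4 lower in M0, where the share over all genes was 9.89% higher and 14.9% lower, and Cdkn2a had 77.7% ± 0.167 against 88.2% ± 2.597 (SD, n = 2 and 8; exact permutation p = 0.04, adjusted p = 0.161). By genotype 1 of the 8, Cdkn2a, was higher in KO at an unadjusted p under 0.05 (exact permutation test) and 0 were lower. The shares over all genes were 3.56% and 0.667%. Of 7 genes for the removal of H3K27me3 or H2A ubiquitin, 3 had no cover, 0 reached 50% of the window in any library, and 2 of 4 tested, Kdm6b and Bap1, were higher in M0 at an unadjusted p under 0.05 (exact permutation test). Kdm6b, a demethylase of H3K27, had 27.2% (WT) and 34.1% (KO) in M0 and 9.50% to 23.1% after stimulation. The M0 counts of these lists stand beside 9.89% higher and 14.9% lower over all genes.

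Cbx2 had the widest range of the members, 35.7 percentage points over the 10 libraries. The genes more than 100 kb away with the most similar window cover were Lrg1, Ripor3 and Dnah1, with mean absolute differences of 4.61, 4.75 and 5.91 percentage points over the 10 libraries.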

How the data were processed

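H3K27me3 was profiled in 10 libraries grouped by the genotype and state in their titles. Per the submitters' processing notes the tools were HOMER 4.8, DiffBind 2.0.2, Bowtie2 2.4.2, deepTools 3.5.1 and SAMtools 1.10, with build mm10. Regions were called per library without input by HOMER findPeaks, with windows of 1000 bp, a distance of 2500 bp and a limit of 0.001 on the false discovery rate, as the headers record. The signal, a tag count normalised to 10 megatags, the score, the region size and the clonal ratio of each region are the authors' values, per the file headers. The deposited tables of differential regions hold log2 concentrations and folds with a p-value and false discovery rate, and their model is not given in the sources used here.

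Regions of a library were merged. Cover is the percent of a RefSeq gene window (GRCm38.p6) under them. Density is the summed signal per kb of overlapping regions. Labels were exchanged exactly within genotype or state, for every gene with cover, or with a region in all 10 libraries for density, with Benjamini-Hochberg adjustment over all of them (Python 3.11.15, numpy 2.4.6, pandas 2.3.3, scipy 1.17.1). These steps were tested on simulated data. The members and lists were chosen with earlier results of these data known. Named genes are the 9 members, the genes whose bodies overlap their windows, list genes covered in all 10 libraries and the 3 genes most like the member of widest range. The other list genes in the text were named after their values were seen. Start cover, region edges, leaving out the libraries with X-linked regions, crossed pairing, the M2 against M1 test without genotype and scaling by the mean region density were added after the data were seen. Position in exons, introns or UTRs was not analysed here, and 1 gene of the lists is not reported here.

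Same-numbered WT and KO libraries did not deviate together over 20661 autosomal genes, with correlations of -0.0201 in M1 and -0.162 in M2. Between M1 and M2 the correlation was 0.20 in WT, whose replicate 1 libraries share the X-linked regions, and 0.00139 in KO, so not every pair passed 0.1 and the numbers were not used as pairs.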

Additional observations from a re-analysis of the deposited data

Results flagged for a closer look

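Outlying values were sought in 52 sets of 4 libraries (M1 or M2, per member and measure). The limit used marks about 1 in 20 sets of normally distributed values by chance, a share that need not hold for percentages bounded at 0 and 100. Sets with equal values in all 4 libraries are among the 52 and cannot be marked. The following values stood far from the other 3. Start cover of Phc1 was 11.6% in WT M1 replicate 1 and 22.7% to 23.6% in the other M1 libraries. Start cover of Pcgf2 was 10.99% in KO M2 replicate 2 and at most 0.85% in the other M2 libraries. Start cover of Cbx6 was 50.0% in WT M1 replicate 2 and at most 7.65% in the other M1 libraries. Start cover of Pcgf5 was 0% in WT M2 replicate 1 and 91.3% to 100% in the other M2 libraries.

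At the Cbx7 start the genotypes stood in opposite order in both stimulated states. KO minus WT cover was -16.5 percentage points in M1 and 26.3 in M2, with no overlap between the genotypes in either state. This difference between states was not tested. The pattern was found by searching all members and measures, and its share over all starts was not computed. With 2 libraries per genotype in a state, the smallest possible exact permutation p within that state is 0.333.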

How the results depend on the processing

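With the upper 50% of each list by score, which drops whole domains (the Cbx8 domain of KO M0 had a score of 24.5 against a median of 25 in its list), the M0 difference turned to -27.9 percentage points at Cbx2 and -27.3 at Cbx8. Members past the threshold then numbered 1 for M0 cover, 1 for M0 density, 0 for KO density and 1 for starts in M0, and 0 members had 50% cover in all 10 libraries. With 75% of the window as the rule that number was 1. With 2 kb around the start, 1 start passed in M0. Leaving out both libraries with X-linked regions gave 0 members or starts for M0 by cover, density and start and 0 for KO density, where no value could pass. Relative to the mean region density of each library, the log2 M0 density difference was -0.17 at Cbx7. It was 0.69 at Cbx8, 0.74 at Bmi1 and 0.64 at Cbx2 (each at exact permutation p = 0.04). Leaving out a library gave 0 to 0 members or starts past the threshold for M0 by cover, density and start, since the smallest p is then 0.05 or 0.2. It gave 0 to 1 for KO cover (Cbx6 without KO M1 replicate 1, Pcgf5 without WT M2 replicate 2) and 0 to 1 for KO density. Without any 1 of the M0 or WT M1 libraries the Cbx2 density difference had p from 0.0556 to 0.0833 (exact permutation).

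With the replicate block, 0 members passed for KO against WT and 0 for M2 against M1, as without it, and crossing the M2 numbers also gave 0. Exchanging M1 and M2 labels without keeping genotype gave 0. Joining regions up to 2500 bp apart or narrowing the flanks to 2 kb changed no count by over 1.5 times. The caller's tag threshold rose with depth, from 20 at 12.6 megatags (WT M0) to 27 at 20.9 megatags (WT M2 replicate 1). A region that misses this threshold is counted as no cover. The deepest library, WT M2 replicate 1, also had the lowest share of tags in regions, 41.3%. The part of depth in these shares was not tested.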
